A study of Homo sapiens with 22 samples.

Results

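Cholesterol synthesis and its sterol control were followed through 28 genes, out of the 63677 genes listed in each deposited table, in human neuroblastoma cell lines that carried a knockdown or its control. The genes were taken by name as 18 synthesis enzymes, 5 regulators of sterol regulatory element-binding protein (SREBP), and 5 genes of sterol export, transport or acetyl-CoA condensation. SH-SY5Y, a neuroblastoma line, received lentiviral shRNAs under puromycin selection against the CASC15-003 transcript (sh003) or the CASC15-004 transcript (sh004) of the long non-coding RNA gene CASC15, or a scrambled control; each transcript was targeted by 2 shRNAs, sh1 and sh2. Monolayers after 7 days of retinoic acid (RA), a differentiating agent labelled as 10 mM, comprised 3 sh003, 2 sh004 and 2 control libraries, and growing monolayers at day 0 comprised 3 sh003, 2 sh004 and 3 control libraries. Sphere cultures comprised 2 sh003 libraries, 2 sh004 libraries and 1 control library. KELLY, another neuroblastoma line, gave 1 library with SOX9 siRNA and 1 with control siRNA.

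Cells make cholesterol from acetyl-CoA through mevalonate, farnesyl pyrophosphate, squalene and lanosterol. When membrane sterol falls, SCAP escorts SREBP from the endoplasmic reticulum to the Golgi, where it is cleaved into a factor that switches on synthesis genes; when sterol is plentiful, INSIG proteins hold SCAP back. Oxysterols made from surplus cholesterol activate LXR receptors, which drive export genes such as ABCA1 and ABCG1, and also SREBF1.

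Serum, a source of sterol, was stated differently for the RA cultures: 10% in the growth protocol and 1% in the per-sample treatment text, against 10% at day 0. The treatment text went against the title in sh003 sh1 of batch 2 at day 7 (10% serum without RA). It also did so in sh003 sh2 of batch 1 at day 0 (1% serum with RA). The labels do not settle the serum of these libraries. Without an untreated day 7 group, RA, time in culture and medium cannot be told apart. Apart from the shRNA and batch labels, nothing says that libraries of a group came from separate cultures, so p-values measure the spread between libraries. Each sh004 group and each knockdown sphere group holds 1 library of sh1 and 1 of sh2, and the sh003 monolayer groups mix both. That spread may be technical, and in the knockdown groups it also holds differences between shRNAs. In bulk RNA, fewer cells of a type and less RNA per cell cannot be told apart.

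Promoter windows show the letters in front of the genes that carry the day 7 and sphere results, with those members that moved in every background first. RefSeq (GRCh38.p14) held windows of 300 bases, 250 before to 50 after the start, for 24 of the 28 genes; FDFT1, SQLE, ACAT2 and ABCG1 are named only. In each line the bases run 5′ to 3′ on the gene's strand, and capitals mark any of 4 motifs on either strand: the sterol element TCACNCCAC, CCAAT (bound by NF-Y), the GC box GGGCGG (bound by SP1) and the E-box CACGTG. No overlaps were merged in the counts, so neighbouring capitals can hold more than 1 motif. The INSIG1 window is chr7:155297628-155297927 (plus strand), DHCR7 chr11:71448344-71448643 (minus), TM7SF2 chr11:65111622-65111921 (plus), SREBF1 chr17:17836937-17837236 (minus) and HMGCS1 chr5:43313363-43313662 (minus).
INSIG1: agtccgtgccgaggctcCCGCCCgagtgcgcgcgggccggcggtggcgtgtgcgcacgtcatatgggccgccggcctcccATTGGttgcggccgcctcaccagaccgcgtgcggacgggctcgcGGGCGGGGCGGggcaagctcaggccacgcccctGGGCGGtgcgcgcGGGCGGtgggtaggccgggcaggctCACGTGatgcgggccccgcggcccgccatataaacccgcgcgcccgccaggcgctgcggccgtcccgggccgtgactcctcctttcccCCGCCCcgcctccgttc
DHCR7: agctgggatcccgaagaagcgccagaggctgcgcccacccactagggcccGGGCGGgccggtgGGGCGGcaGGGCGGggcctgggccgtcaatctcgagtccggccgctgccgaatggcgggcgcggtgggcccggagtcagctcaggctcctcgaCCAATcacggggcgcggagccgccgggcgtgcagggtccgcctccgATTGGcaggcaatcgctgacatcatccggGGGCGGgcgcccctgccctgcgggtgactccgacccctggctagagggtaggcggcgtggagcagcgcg
TM7SF2: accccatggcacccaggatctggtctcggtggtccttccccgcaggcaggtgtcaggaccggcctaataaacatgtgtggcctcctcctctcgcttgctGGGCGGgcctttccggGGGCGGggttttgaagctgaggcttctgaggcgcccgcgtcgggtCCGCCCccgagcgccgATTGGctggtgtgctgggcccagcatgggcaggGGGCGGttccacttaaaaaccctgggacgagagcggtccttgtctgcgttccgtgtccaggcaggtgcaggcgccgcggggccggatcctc
SREBF1: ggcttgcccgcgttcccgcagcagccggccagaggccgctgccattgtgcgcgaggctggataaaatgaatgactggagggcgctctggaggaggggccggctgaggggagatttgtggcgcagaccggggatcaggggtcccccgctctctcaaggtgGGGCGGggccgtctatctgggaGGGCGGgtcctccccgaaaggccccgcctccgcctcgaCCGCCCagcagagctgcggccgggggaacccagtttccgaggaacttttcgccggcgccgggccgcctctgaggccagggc
HMGCS1: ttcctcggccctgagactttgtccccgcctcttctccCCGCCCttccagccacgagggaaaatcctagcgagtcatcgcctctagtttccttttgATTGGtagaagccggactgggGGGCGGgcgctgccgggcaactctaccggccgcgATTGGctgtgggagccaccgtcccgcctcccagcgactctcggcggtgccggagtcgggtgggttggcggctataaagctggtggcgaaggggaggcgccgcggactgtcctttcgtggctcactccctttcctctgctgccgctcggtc

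GC boxes and CCAAT letters were frequent in these windows. GGGCGG was found in 23 of 24 members with a window (95.8%; NSDHL lacked it), against 48.3% of the 27305 genes with a window. CCAAT was found in 17 of 24 members (70.8%), against 39.7% of all genes, and CACGTG in 5 (LSS, SC5D, INSIG1, SCAP and ABCA1; 20.8%), against 8.77%. TCACNCCAC was found in SREBF2 alone (4.17%), against 1.39% of all genes. The INSIG1 window held 1 CCAAT, 6 GC boxes and 1 E-box, and that of DHCR7 held 2 CCAAT and 4 GC boxes. TM7SF2 held 1 CCAAT and 4 GC boxes, SREBF1 held 3 GC boxes and no CCAAT, and HMGCS1 held 2 CCAAT and 2 GC boxes. DHCR7 and HMGCS1 have 2 windows each, of which 1 is printed. The 27305 genes include genes not detected in these cells, whereas every member passed the monolayer filter. Shares among expressed genes were not computed, so the contrasts may reflect expression rather than this pathway. These matches describe letters in the windows and say nothing of factor binding.

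Library depth ran from 11.9 M to 62.1 M assigned reads, recovered from the deposited RPKM (reads scaled by gene length and library total). CASC15 RNA was not called in any monolayer comparison of a knockdown with the control; at day 7 it was at 2.08–3.38 RPKM in sh003, 1.31–1.48 in sh004 and 3.26–3.33 in control libraries (log2 difference, sh004 over control, −1.01, SE 0.29, adjusted p = 0.520; 0.133 with the batch block). At day 0 CASC15 was at 1.57–2.65 RPKM in sh003, 1.14–1.16 in sh004 and 1.31–2.38 in control libraries, so the sh003 libraries were on average above the control (0.20, SE 0.24, adjusted p = 1.0), against their label. These values count the whole gene and do not check a single transcript, and knockdown here is the labels' word. In KELLY, SOX9 was at 0.974 RPKM with SOX9 siRNA and 5.61 with control siRNA. The summed RPKM of 4 RA-responsive genes (CYP26A1, CYP26B1, RARB, DHRS3) was 155–1922 at day 7 and 1.46–6.51 at day 0, so it followed the titles, although the tags of 2 libraries contradict theirs (sh003 sh1 of batch 2 at day 7 and sh003 sh2 of batch 1 at day 0). The sh004 sh2 library at day 7 stood apart, with an RA sum of 155 against 1213–1922 in the other 6 day 7 libraries, and with a noradrenergic marker sum (PHOX2A, HAND2, GATA3, ISL1, DBH) of 1429 against 524 in sh004 sh1. Mesenchymal-state marker sums at day 7 were 79.7–130 in sh003, 104 and 68.3 in sh004 sh1 and sh2, and 37.4–64.5 in control libraries; at day 0 they were 172–241, 109–198 and 80.7–159. Blood markers summed to at most 2.12 RPKM, endothelial markers to at most 1.5 and epithelial markers to at most 6.65. Of the 5 noradrenergic markers, GATA3 fell at day 7 in all 3 backgrounds with the batch block (−1.90 in sh003, −2.31 in sh004 and −1.87 in control cells; adjusted p 0.0090, 0.018 and 0.021), and DBH fell in sh003 cells (−2.57, adjusted p = 0.039). The part of these markers in the results below was not tested.

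After 7 days in RA, 5 members rose in every background once batch was a term of the fit: the SCAP-retention protein gene INSIG1, the transcription factor gene SREBF1, squalene synthase FDFT1, and the late enzymes DHCR7 and TM7SF2. INSIG1 was higher by 1.89 to 2.18 in log2 in that fit, and most enzymes of the pathway did not pass the test. Without a batch term, INSIG1, SREBF1, DHCR7 and FDFT1 rose in sh003 cells (4 of 28 members, against 2.35% of the 19461 genes tested and 1.57% called higher), none in sh004 cells (background 0.38%; 1601 genes had an unadjusted p under 0.05, and 0 members were called by voom, limma's weighting for counts, on recovered reads) and INSIG1 in control cells (1 of 28, against 0.956%). With batch as a block, 7 rose (background 8.65%) and 3 fell (5.63%) in sh003 cells, where 14.3% of genes were called. In that fit 7 rose (1.42%) and 0 fell (0.683%) in sh004 cells, where 2.11% were called, and 5 rose (5.03%) and 0 fell (2.65%) in control cells, where 7.68% were called. The 5 that rose in every background compare with 152 of 19461 genes (0.781%) that did so. The 3 comparisons contrast different libraries but share 1 estimate of spread and the batch terms, so they are not independent. Batch 3 holds day 0 libraries alone (control and sh003 sh1), so the day 7 changes with the block rest mainly on batches 1 and 2. In those batches the sh003 libraries of day 0 are all of sh2, whereas day 7 also holds sh1. In sh003 cells shRNA and day are thus partly mixed in that fit. All tests are limma on log2(RPKM + 0.5) with Benjamini-Hochberg adjustment over all genes tested, and a gene is called at an adjusted p under 0.05.

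INSIG1 (ENSG00000186480) encodes the endoplasmic reticulum protein that retains SCAP, and is itself an SREBP target. It had 29.6, 16.5 and 47.2 RPKM in sh003 libraries at day 7, against 4.57, 7.07 and 7.35 at day 0. In sh004 libraries it had 22.4 and 29.4 RPKM at day 7, against 7.20 and 6.01 at day 0, and in control libraries 19.5 and 19.2 at day 7, against 4.29, 5.09 and 5.56 at day 0. Each of the 7 day 7 libraries was above each of the 8 day 0 libraries. The log2 change was 2.12 (SE 0.31, adjusted p = 0.0066) in sh003, 1.89 (SE 0.38, adjusted p = 0.080) in sh004 and 1.86 (SE 0.35, adjusted p = 0.035) in control cells. With the batch block the adjusted p was 0.0046, 0.037 and 0.016; the sh004 call with the block was lost when any of 13 of the 15 libraries was left out (adjusted p 0.0513–0.214). The call without a block in control cells was lost when any of 9 libraries was left out in turn (all 5 control libraries, both sh004 libraries of day 0, sh003 sh2 of batch 1 at day 7 and sh003 sh2 of batch 2 at day 0; adjusted p 0.054–0.216), and the call in sh003 cells was kept with any 1 library left out in either fit.

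SREBF1 (ENSG00000072310) encodes SREBP-1, which leans towards fatty acid genes, and LXR can induce it. It had 42.3, 42.8 and 27.3 RPKM in sh003 libraries at day 7, against 17.8, 10.8 and 11.9 at day 0. In sh004 libraries it had 39.7 and 31.0 RPKM at day 7, against 11.0 and 9.31 at day 0, and in control libraries 56.2 and 30.4 at day 7, against 14.8, 10.4 and 17.7 at day 0. Day 7 and day 0 values did not overlap. The log2 change was 1.44 (SE 0.29, adjusted p = 0.028) in sh003, 1.74 (SE 0.35, adjusted p = 0.081) in sh004 and 1.53 (SE 0.32, adjusted p = 0.059) in control cells, and the batch block gave adjusted p of 0.0033, 0.0087 and 0.0078. SREBF1 shares exon bases with RAI1 in the annotation, and its counts are uncertain to that extent.

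**Figure D1:**
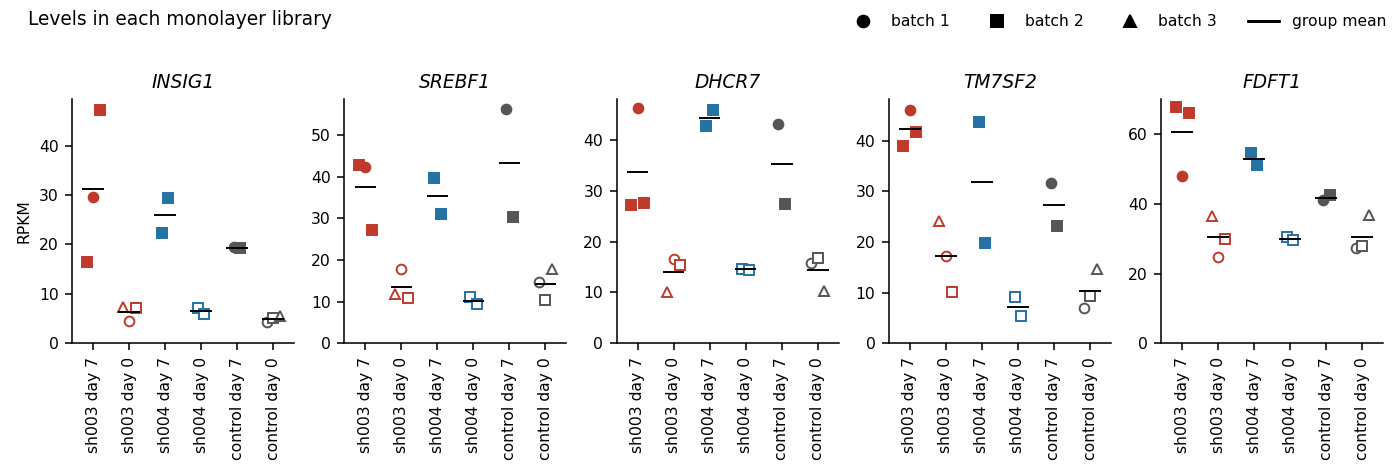
RPKM of INSIG1, SREBF1, DHCR7, TM7SF2 and FDFT1 in each monolayer library, with day 7 left of day 0 within sh003, sh004 and control; marker shapes are batches and lines are group means. INSIG1 day 7 points lie between 16.5 and 47.2 RPKM, above every day 0 point (4.29 to 7.35).

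Among the enzymes, DHCR7 (ENSG00000172893), which makes cholesterol from 7-dehydrocholesterol, had 46.2, 27.2 and 27.5 RPKM in sh003 libraries at day 7, against 16.5, 15.5 and 10.1 at day 0. In sh004 libraries it had 42.8 and 45.9 RPKM at day 7, against 14.6 and 14.5 at day 0, and in control libraries 43.1 and 27.4 at day 7, against 15.9, 16.8 and 10.3 at day 0. No day 7 value lay among the day 0 values. The log2 change was 1.22 (SE 0.27, adjusted p = 0.042) in sh003, 1.58 (SE 0.33, adjusted p = 0.095) in sh004 and 1.26 (SE 0.30, adjusted p = 0.091) in control cells, and 1.07, 1.58 and 1.05 with the batch block (adjusted p 0.0050, 0.0036 and 0.012). The sh003 call without a block was lost when any of 10 libraries was left out in turn (all 6 sh003 libraries, both sh004 libraries of day 0 and control batches 1 and 2 of day 0; adjusted p 0.0566–0.134).

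TM7SF2 (ENSG00000149809), a sterol C14 reductase, had 46.2, 39.1 and 41.7 RPKM in sh003 libraries at day 7, against 17.3, 10.2 and 24.1 at day 0. The sh004 libraries had 43.8 and 19.9 RPKM at day 7, against 9.15 and 5.28 at day 0, and the control libraries 31.6 and 23.2 at day 7, against 6.96, 9.33 and 14.6 at day 0. Within each background the days did not overlap, and the batch 3 libraries were the highest at day 0 in sh003 and in control cells. Its log2 change of 1.35 in sh003, 2.01 in sh004 and 1.42 in control cells passed no test without a block (adjusted p 0.080, 0.14 and 0.16). The block gave log2 changes of 1.67 (SE 0.32, adjusted p = 0.011), 2.01 (SE 0.37, adjusted p = 0.025) and 1.69 (SE 0.35, adjusted p = 0.023). TM7SF2 overlaps VPS51 on the same strand, so its counts are uncertain.

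FDFT1 (ENSG00000079459), squalene synthase, commits farnesyl pyrophosphate to sterols. It had 48.2, 68.0 and 66.3 RPKM in sh003 libraries at day 7, against 24.8, 30.1 and 36.4 at day 0. The sh004 libraries had 54.7 and 51.2 RPKM at day 7, against 30.5 and 29.6 at day 0, and the control libraries 41.2 and 42.6 at day 7, against 27.4, 27.8 and 36.8 at day 0. The control groups lay closest together and still did not overlap. The log2 change was 0.99 (SE 0.18, adjusted p = 0.018) in sh003, 0.81 (SE 0.22, adjusted p = 0.24) in sh004 and 0.46 (SE 0.20, adjusted p = 0.33) in control cells, and 1.08, 0.81 and 0.59 with the batch block (adjusted p 0.0010, 0.015 and 0.025).

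A further 4 members rose in a single background in the fit with the batch block. SREBF2, the gene of the SREBP that favours sterol genes, had 21.2 and 35.6 RPKM in sh004 libraries at day 7, against 12.2 and 14.1 at day 0 (log2 change 1.04, SE 0.21, adjusted p = 0.039; 0.67 without the sh004 sh2 library of day 7). MVD, the mevalonate diphosphate decarboxylase, had 11.8 and 17.4 RPKM in sh004 libraries at day 7, against 6.27 and 7.01 at day 0 (1.06, SE 0.21, adjusted p = 0.037). ABCG1, a sterol exporter, had 3.83, 1.77 and 1.83 RPKM in sh003 libraries at day 7, against 1.46, 0.454 and 0.916 at day 0 (1.05, SE 0.31, adjusted p = 0.048; 0.65 without sh003 sh2 of batch 2 at day 0). NPC1, which moves cholesterol out of lysosomes, had 8.32, 7.55 and 7.72 RPKM in sh003 libraries at day 7, against 5.44, 6.33 and 5.49 at day 0 (0.43, SE 0.13, adjusted p = 0.048). Each of the 4 calls depended on single libraries: left out 1 at a time, 13 of 15 libraries lost that of NPC1, 11 that of SREBF2, 10 that of ABCG1 and 8 that of MVD. These 4 genes were higher at day 7 in all 7 same-batch pairs of a day 7 and a day 0 library that were compared. The knockdown pairs matched the shRNA, except for sh003 sh1 at day 7 over sh2 at day 0 in batch 2. The sh004 pairs of unlike shRNAs were not among the 7.

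PMVK, EBP and ACAT2 fell in sh003 cells in the fit with the batch block. PMVK, phosphomevalonate kinase, had 33.6, 29.7 and 28.2 RPKM in sh003 libraries at day 7, against 51.4, 41.6 and 33.9 at day 0 (log2 change −0.65, SE 0.14, adjusted p = 0.015). EBP, the sterol isomerase, had 9.20, 10.6 and 8.23 RPKM at day 7, against 13.4, 14.9 and 11.9 at day 0 (−0.65, SE 0.15, adjusted p = 0.020). ACAT2, a cytosolic thiolase that joins acetyl-CoA units, had 7.34, 6.19 and 7.00 RPKM at day 7, against 9.94, 13.5 and 9.83 at day 0 (−0.77, SE 0.20, adjusted p = 0.033). The ACAT2 call was lost without any of 11 of 15 libraries, the PMVK call without any of 4 and the EBP call without any of 3. All 3 were below day 0 without overlap in sh003 cells (background 8.7% of genes) and lower in all 7 same-batch pairs compared. In control cells PMVK (−0.55, adjusted p = 0.051) and EBP (−0.59, adjusted p = 0.053) missed the threshold with the block. Across the 7 pairs, which share libraries, 14 members were higher in every pair (background 16.9% of genes) and these 3 lower in every pair (background 11.8%).

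**Figure D2:**
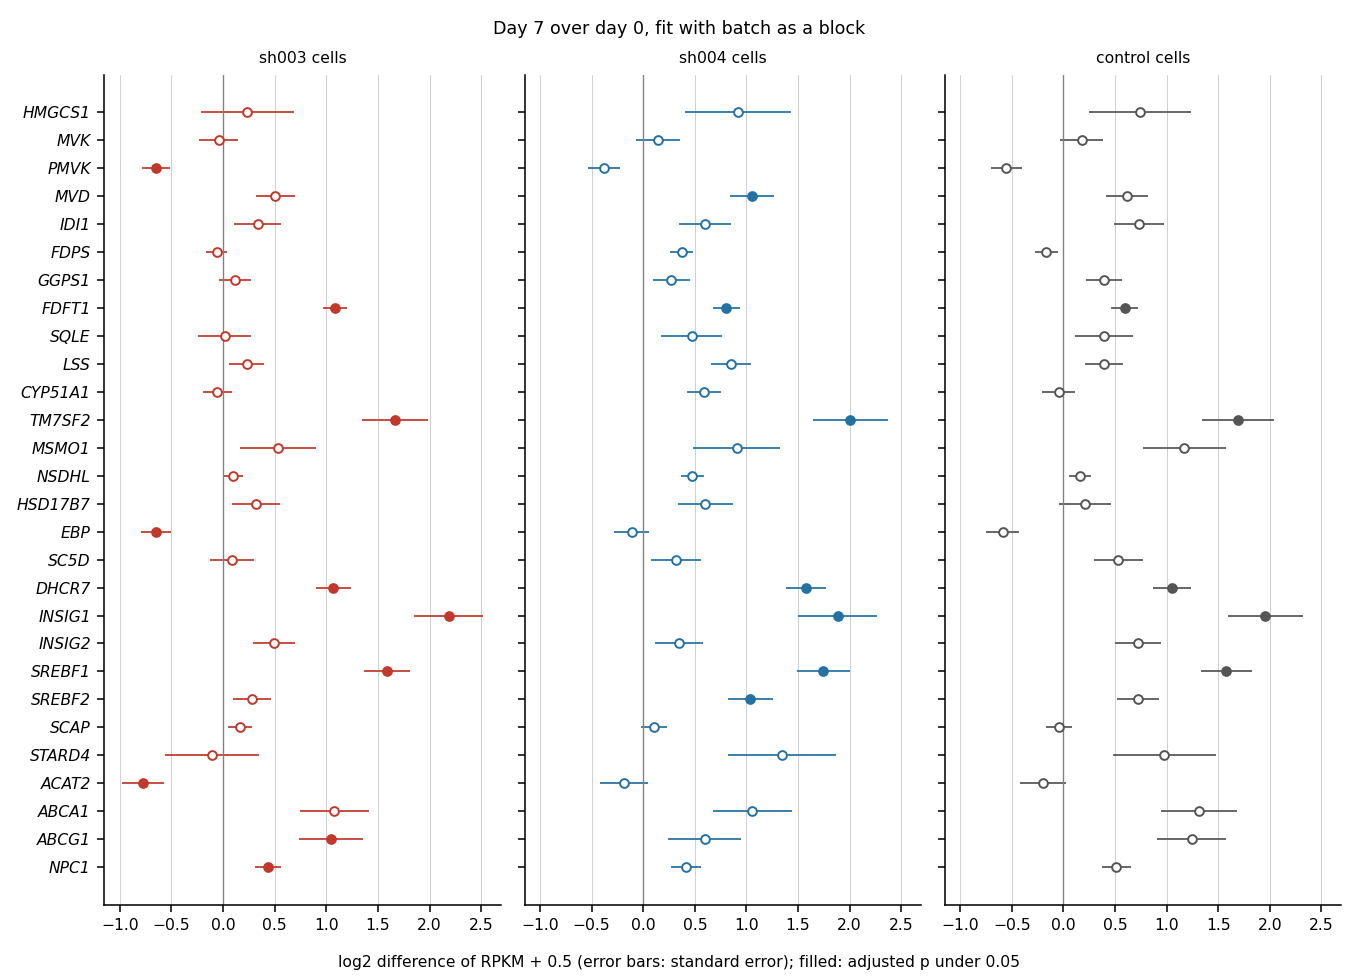
Change from day 0 to day 7 on the log2(RPKM + 0.5) scale with its SE for the 28 members in sh003, sh004 and control monolayers, from the fit with the batch block; filled points have an adjusted p under 0.05. INSIG1 lies at 2.18, 1.89 and 1.96, and PMVK at −0.65, −0.38 and −0.55.

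Several enzymes known as SREBP targets did not pass the test at day 7. HMGCS1, which makes HMG-CoA, had 14.2, 9.06 and 17.4 RPKM in sh003 libraries at day 7, against 9.60, 12.0 and 10.1 at day 0, and the days overlapped. In sh004 libraries it had 12.0 and 46.5 RPKM at day 7, against 10.5 and 14.4 at day 0, so that the high value was that of the sh004 sh2 library. Control libraries had 14.4 and 23.8 RPKM at day 7, against 9.52, 12.4 and 10.3 at day 0 (log2 change 0.77, SE 0.46, adjusted p = 0.50). SQLE, squalene epoxidase, changed by 0.01, 0.47 and 0.35 in sh003, sh004 and control cells (adjusted p 1.0, 0.80 and 0.64), and IDI1, the isopentenyl diphosphate isomerase, by 0.19, 0.60 and 0.53 (adjusted p 0.87, 0.78 and 0.54). The remaining enzymes MVK, FDPS, GGPS1, LSS, CYP51A1, MSMO1, NSDHL, HSD17B7 and SC5D, the regulators INSIG2 and SCAP, and the transporter STARD4 were called in no background by either fit.

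By role, the median log2 change without a block was 0.19 in sh003, 0.59 in sh004 and 0.41 in control cells for the 18 enzymes, and 0.47, 1.04 and 0.92 for the 5 regulators. The exporters ABCA1 and ABCG1 had medians of 0.90, 0.83 and 1.16. All 28 members together had medians of 0.25, 0.60 and 0.44, against 0.05, 0.02 and 0.15 over all genes tested. A positive value was seen for 24, 25 and 24 of 28 members. Under median-ratio scaling the median over all genes fell by 0.11 in the control comparison and positive values in sh003 cells numbered 18 of 28. That scaling called 235 genes higher and 260 lower in sh003 cells (47.5% higher), against 305 and 153 without it (66.6%), and 89 and 65 in control cells (57.8%), against 137 and 49 (73.7%). It called 3 members in sh003, 0 in sh004 and 1 in control cells, all higher. Groups did not overlap, with day 7 higher, for 9 members in sh003 cells (background 14.9%), 20 in sh004 cells (20.9%) and 14 in control cells (17.7%). With day 7 lower, the counts were 3 in sh003 cells (8.7%), 1 in sh004 cells (18.1%) and 0 in control cells (9.44%).

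ABCA1, the exporter that loads cholesterol onto apolipoproteins, was among the lowest members. It had 1.18, 1.08 and 0.921 RPKM in sh003 libraries at day 7, against 0.313, 0.0714 and 1.16 at day 0. The sh004 libraries had 1.23 and 0.184 RPKM at day 7, against 0.0379 and 0.00973 at day 0, and the control libraries 0.774 and 0.740 at day 7, against 0.0371, 0.0747 and 0.258 at day 0. The sh003 day 0 library of batch 3 reached the day 7 levels. ABCA1 was not called in any background (block: 1.08, 1.06 and 1.32 in log2, adjusted p 0.057, 0.21 and 0.054).

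Leaving out the sh004 sh2 library of day 7, which was singled out after seeing the data, changed the block calls of all 3 backgrounds, which share 1 estimate of spread. Then 9 members rose in sh003 cells (background 12.6%) with the same 3 falling, 7 rose in sh004 cells (5.11%) and 12 rose in control cells (9.35%) with PMVK and EBP falling. In sh004 cells INSIG1 and MVD were then not called (adjusted p 0.0605 and 0.0616), where the lone day 7 library is assumed to vary like the other groups. Leaving out the sh004 sh1 library of day 7 in its place gave the same calls in sh003 and control cells, and 6 in sh004 cells (HMGCS1, MVD, LSS, DHCR7, SREBF1 and SREBF2; background 1.24% higher). Leaving out the 2 libraries with contradicting tags left INSIG1 as the only member called in each background without a block (adjusted p 0.0057 in sh003, 0.0166 in sh004 and 0.0072 in control cells; 0.457%, 0.113% and 0.324% of genes called higher). With the block it left FDFT1, DHCR7, INSIG1 and SREBF1 called higher in each of sh003 (background 2.16%) and sh004 (0.663%), with EBP lower in sh003 (2.52%), and 5 members higher in control cells (3.11%).

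Other single libraries also decided calls. In control cells, no member was called with the block without the batch 1 library of day 0, or without either day 7 library (adjusted p of the 5 members 0.0551–0.182), and 3 were called without the batch 2 library of day 0. In sh004 cells 1 member, DHCR7, was called without sh2 of day 0, 3 without sh1 of day 0, and 4 without any single one of 4 others (control batch 1 of day 0, either control library of day 7, and sh003 sh2 of batch 2 at day 0). In sh003 cells FDFT1, DHCR7, INSIG1 and SREBF1 were called with the block whichever library was left out; the total was 4 without sh2 of batch 1 at day 7 or sh2 of batch 2 at day 0, 5 without sh2 of batch 2 at day 7 and 6 without sh2 of batch 1 at day 0. Without a block, the 4 calls in sh003 cells became 1 or 2 when any of the 6 sh003 libraries was left out, and 3 or 4 otherwise.

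Between knockdown and control monolayers, no member was called in either knockdown on either day, with or without the batch block, so no change in this pathway passed the test. The share of all genes called was 0.0% for sh003 and for sh004 at day 7, 0.00514% for sh003 at day 0 and 0.0% for sh004 at day 0. With the block it was 0.00514% for sh003 and 0.226% for sh004 at day 7, and 0.252% for sh003 and 0.0% for sh004 at day 0. At an unadjusted p under 0.05 there were 1405 genes for sh003 and 1564 for sh004 at day 7, and 1125 and 378 at day 0. voom on the recovered reads also called 0 members in each. No member was called for a difference in its day 7 change between sh003 or sh004 and control cells (tested in the same fit, 0 calls with either fit and 284 genes at an unadjusted p under 0.05 for each knockdown).

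Single members lay away from the control without passing the test. At day 7 in sh003 cells ACAT2 had 7.34, 6.19 and 7.00 RPKM, against 11.9 and 14.7 in control cells (log2 difference −0.91, SE 0.23, adjusted p = 0.57; −0.93, SE 0.21, adjusted p = 0.14 with the block). STARD4, a soluble sterol carrier, had 12.1, 9.43 and 17.7 RPKM in sh003 cells, against 21.5 and 41.8 in control cells (−1.21, SE 0.48, adjusted p = 0.61). In each gene the knockdown values all lay below the control values. FDPS, farnesyl pyrophosphate synthase, was at 0.64 in sh004 over control at day 7 (SE 0.20, adjusted p = 0.52; 0.11 with the block). Without the sh004 sh2 library, the block fit called ACAT2 (−0.93, adjusted p = 0.027) and SREBF2 (−0.57, adjusted p = 0.049) lower in sh003 than in control cells at day 7, against a background of 1.75% of genes lower.

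At day 7, with the batch block, 3 of 18 enzymes had a positive log2 difference from control in sh003 cells (median −0.23; 42.6% of all genes positive) and 16 of 18 in sh004 cells (median 0.27; 40.0%). These counts carry no test and the control libraries are shared. Against the control library of its own batch, sh004 was not uniformly higher: MSMO1 had 9.29 and 24.0 RPKM in sh004, against 19.9 in that control, and HMGCS1 12.0 and 46.5, against 23.8. Groups did not overlap for 4 members higher (9.16% of genes) and 5 lower (13.6%) in sh003 cells at day 7, and for 5 higher (10.8%) and 1 lower (22.1%) in sh004 cells. At day 0 the counts were 2 higher (3.91%) and 0 lower (5.12%) in sh003 cells, and 5 higher (7.66%) and 0 lower (10.1%) in sh004 cells. NPC1 was higher in the knockdown library in 10 of 10 same-batch pairs with a control library, by 0.03 to 0.35 in log2. It was singled out from 28 members, and the share of all genes that did so was not computed, so the count carries no weight. Those pairs share libraries, and NPC1 overlaps RMC1 in the annotation.

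**Figure D3:**
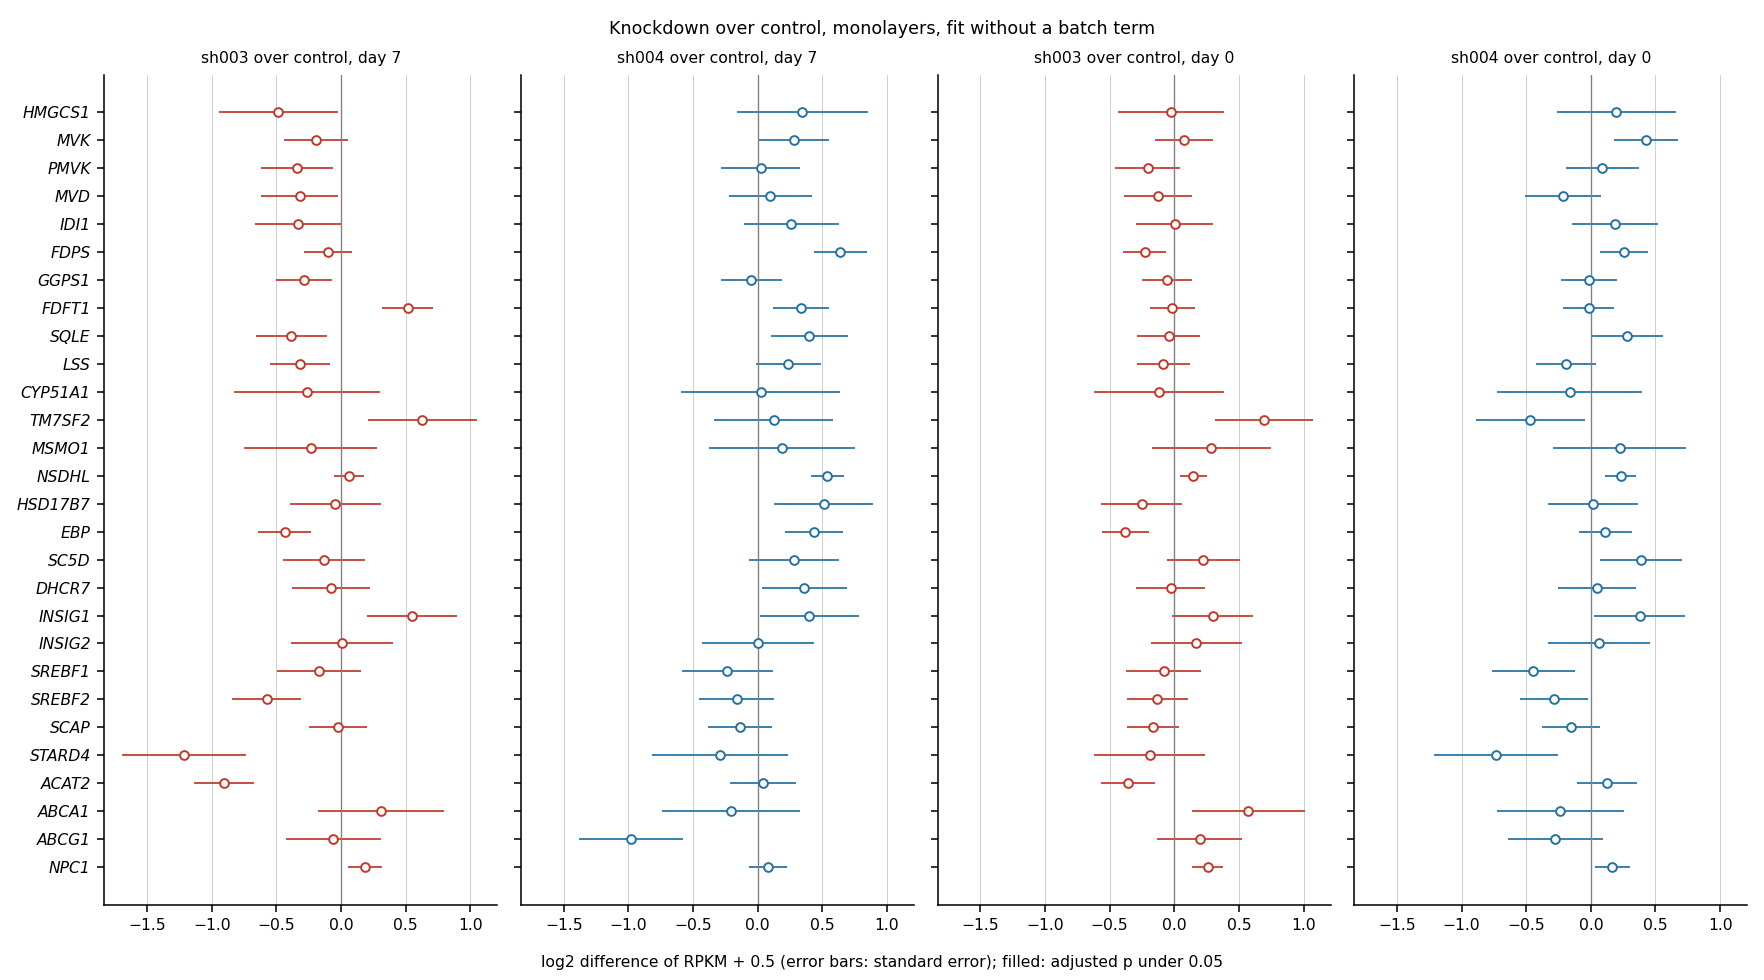
Log2 difference of knockdown over control with its SE for the 28 members, for sh003 and sh004 at day 7 and then at day 0, from the fit without a batch term. No point has an adjusted p under 0.05; ACAT2 in sh003 at day 7 lies at −0.91.

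HMGCS1, MSMO1 and STARD4 were higher with sh2 than with sh1 of the same knockdown in both day 7 pairs, whereas DHCR7 (45.9 and 42.8 RPKM in sh004, 27.5 and 27.2 in sh003) and FDFT1 (51.2 and 54.7 in sh004, 66.3 and 68.0 in sh003) were near equal. In sh004 cells at day 7, HMGCS1 had 46.5 RPKM with sh2 and 12.0 with sh1, a read ratio of 3.88 (95% interval 3.69–4.08). STARD4 had 43.9 and 13.5 RPKM (3.25, 3.11–3.39), MSMO1, a sterol C4 oxidase, 24.0 and 9.29, and SQLE 38.1 and 20.4. At least 1.5-fold higher with sh2 were 9 of 28 members (background 11.3%) and lower were 2, TM7SF2 (19.9 and 43.8) and ABCA1 (0.184 and 1.23), against 17.3% of genes. The RA sum of this sh2 library was the 155 given above; its part in these ratios was not tested. There are no replicates here, and the intervals are exact (Clopper-Pearson) and cover counting error alone.

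In sh003 cells at day 7 the pair of batch 2 was compared, where the RA sums of both libraries were within 1213–1922. The sh1 library is among those with contradicting tags. Its treatment text gave 10% serum without RA, against 1% serum with RA for sh2. In this pair shRNA and labelled medium cannot be told apart. HMGCS1 had 17.4 RPKM with sh2 and 9.06 with sh1, MSMO1 16.5 and 8.24, STARD4 17.7 and 9.43, and INSIG1 47.2 and 16.5. These were the 4 members past 1.5-fold higher (background 6.1%); SREBF1 was lower (27.3 and 42.8; background 7.13%). In sh003 spheres 8 of 26 members were past 1.5-fold higher with sh2, against 9.1% of genes, and none was lower (background 9.0%). HMGCS1 had 45.5 RPKM with sh2 and 19.8 with sh1 there, INSIG1 41.3 and 12.9, and STARD4 101 and 57.7. In sh004 cells at day 0 no member was higher by that fold (background 4.52%) and 2 were lower, STARD4 (6.43 and 13.4) and TM7SF2 (5.28 and 9.15), against 7.71%. In sh004 spheres MVK, CYP51A1 and EBP were higher (background 7.1%) and DHCR7 was lower (background 9.25%).

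**Figure D4:**
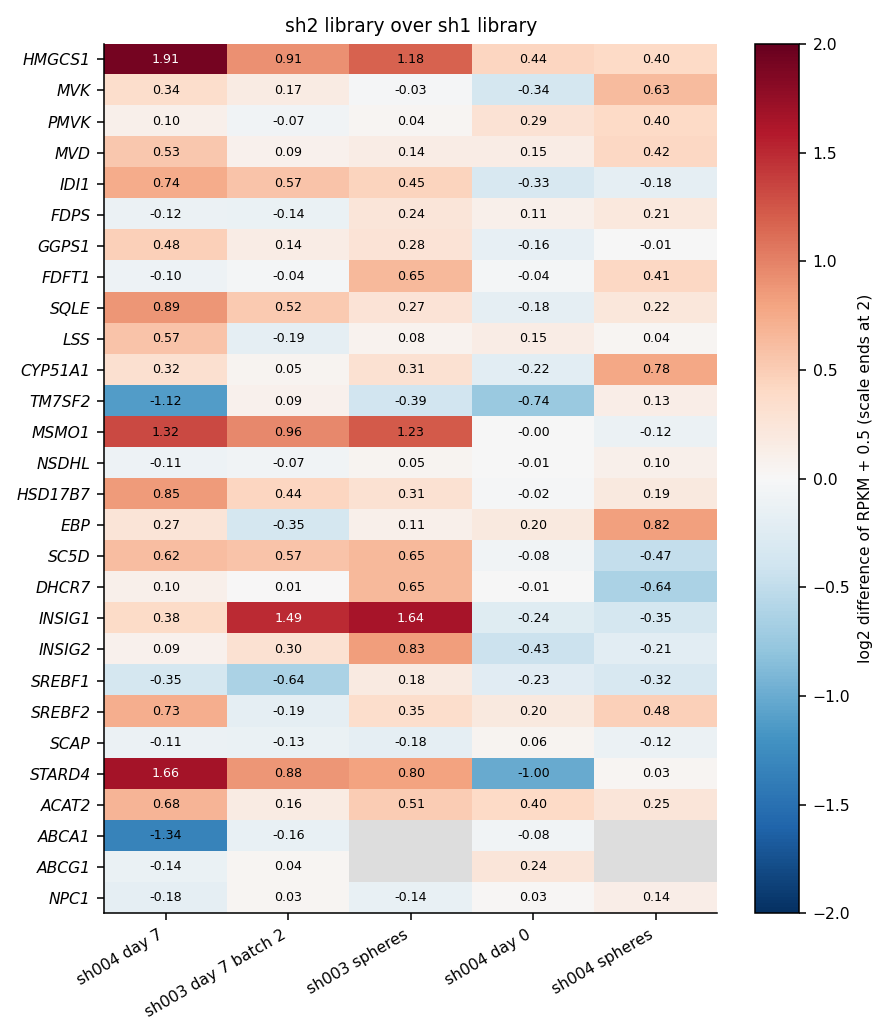
Heat map of the log2 difference of sh2 over sh1 for each member in 5 pairs of libraries, each pair from 1 knockdown and culture, and in monolayers from 1 batch. Libraries of the sh003 day 7 pair also differ in labelled serum and RA. Grey cells did not pass the filter. HMGCS1 is higher with sh2 in both day 7 pairs, with read ratios of 3.88 in sh004 and 1.93 in sh003.

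Some members varied together within groups, and others did not. Correlations with genes outside the members were not computed. After group means were removed over the 15 monolayer libraries, HMGCS1 deviations on the log2 scale correlated with those of SQLE (Pearson r 0.87), ACAT2 (0.82), STARD4 (0.75), MSMO1 (0.74), HSD17B7 (0.73) and SC5D (0.69). They were inversely related to those of SREBF1 (−0.62), ABCA1 (−0.61), TM7SF2 (−0.58) and NSDHL (−0.33), and unrelated to those of CYP51A1 and FDPS (−0.01 each). DHCR7 deviations correlated with those of SCAP (0.92), CYP51A1 (0.91), MVD (0.86) and MVK (0.83), and inversely with FDFT1 (−0.89) and INSIG2 (−0.85). HMGCS1 and DHCR7 themselves gave r of 0.01, and SC5D, HSD17B7 and MSMO1 were inversely related to DHCR7 (−0.58, −0.58 and −0.52). The values describe libraries that share batch, depth and RNA processing. Same-batch sh003 and control libraries deviated together over all genes (r 0.80–0.94 in 6 pairs). Among the 15 libraries is the sh004 sh2 library of day 7, where HMGCS1 had 46.5 RPKM, against 12.0 with sh1. SQLE, ACAT2, STARD4, MSMO1, HSD17B7 and SC5D were also at least 1.5-fold higher there than with sh1, and TM7SF2 and ABCA1 lower. Correlations without that library were not computed, so its share in these values is not known.

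In spheres, sh003 and sh004 cells differed in 14 of the 26 members tested, against 39.9% of the 14711 genes, so many genes of any kind separated these 2 pairs of libraries. Higher in sh003 than in sh004 spheres were 6 enzymes (HMGCS1, IDI1, SQLE, CYP51A1, HSD17B7, DHCR7), SREBF2, STARD4 and NPC1, 9 members in all (background 23.1%). Lower were PMVK, MVD, TM7SF2, NSDHL and SCAP, 5 members (background 16.8%). No member was called between either knockdown and the single control sphere (0 calls by limma, background 0.0% for sh003 and 0.129% for sh004; 2811 and 3268 genes at an unadjusted p under 0.05). These values rest on RPKM recomputed with each library's own total, since the deposited sphere RPKM rotate among 10 totals of 25.6 M to 62.1 M reads; the test has 2 residual degrees of freedom.

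HMGCS1 had 19.8 and 45.5 RPKM in sh003 spheres, against 6.98 and 9.39 in sh004 spheres and 24.1 in the control sphere (log2 difference, sh003 over sh004, 1.83, SE 0.40, adjusted p = 0.017). SQLE had 29.9 and 36.0 RPKM in sh003, against 15.8 and 18.5 in sh004 and 37.7 in the control (0.92, SE 0.20, adjusted p = 0.017). DHCR7 had 20.1 and 31.7 RPKM in sh003, against 12.2 and 7.66 in sh004 and 23.8 in the control (1.34, SE 0.31, adjusted p = 0.020). For these 3 enzymes both sh004 libraries lay below all other spheres. IDI1 had 19.6 and 26.9 RPKM in sh003, against 14.4 and 12.6 in sh004 and 22.0 in the control (0.75, adjusted p = 0.041). CYP51A1, lanosterol demethylase, had 1.71 and 2.24 RPKM in sh003, against 0.328 and 0.922 in sh004 and 1.52 in the control (1.18, adjusted p = 0.047). HSD17B7, a sterol ketone reductase, had 4.24 and 5.39 RPKM in sh003, against 2.24 and 2.62 in sh004 and 4.88 in the control (0.85, adjusted p = 0.032). In each of these as well, the sh004 libraries were the lowest of the 5.

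SREBF2 had 22.7 and 29.0 RPKM in sh003 spheres, against 11.7 and 16.6 in sh004 spheres and 24.5 in the control sphere (log2 difference, sh003 over sh004, 0.86, SE 0.24, adjusted p = 0.035). STARD4 had 57.7 and 101 RPKM in sh003, against 23.2 and 23.8 in sh004 and 31.5 in the control (1.68, SE 0.28, adjusted p = 0.010). NPC1 had 6.53 and 5.86 RPKM in sh003, against 2.25 and 2.52 in sh004 and 3.66 in the control (1.21, SE 0.22, adjusted p = 0.011). For STARD4 and NPC1 the control lay between the knockdowns. INSIG1 had 12.9 and 41.3 RPKM in sh003, against 12.7 and 9.85 in sh004 and 20.8 in the control (1.02, SE 0.51, adjusted p = 0.15), and was not called. SREBF1 had 13.4 and 15.2 RPKM in sh003, against 17.7 and 14.1 in sh004 and 13.4 in the control (−0.14, SE 0.21, adjusted p = 0.61), and the groups overlapped.

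Among the members lower in sh003 spheres, TM7SF2 had 29.4 and 22.4 RPKM, against 74.9 and 82.0 in sh004 spheres and 38.0 in the control sphere (log2 difference, sh003 over sh004, −1.59, SE 0.21, adjusted p = 0.0087). PMVK had 39.3 and 40.5 RPKM in sh003, against 93.6 and 124 in sh004 and 80.3 in the control (−1.42, SE 0.21, adjusted p = 0.0089). MVD had 13.8 and 15.2 RPKM in sh003, against 27.7 and 37.2 in sh004 and 23.3 in the control (−1.12, SE 0.22, adjusted p = 0.013). In all 3 the control lay between the knockdowns. NSDHL, a sterol dehydrogenase, had 21.4 and 22.1 RPKM in sh003, against 38.7 and 41.4 in sh004 and 34.9 in the control (−0.87, adjusted p = 0.014). SCAP had 26.1 and 23.0 RPKM in sh003, against 38.5 and 35.2 in sh004 and 31.4 in the control (−0.58, adjusted p = 0.048).

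All 14 sphere calls were lost without sh003 sh2 (adjusted p 0.0656–0.179) and without sh004 sh2 (0.0617–0.162), 10 were lost without sh004 sh1 and 5 without sh003 sh1. With RPKM as deposited 1 member was called, and with no filter none was; median-ratio scaling called 7 higher and 7 lower. Sphere groups did not overlap for 14 members higher in sh003 than in sh004 (background 42.9%) and 8 lower (33.0%). ABCA1 (at most 0.175 RPKM) and ABCG1 (at most 0.600) reached 1 RPKM in no sphere library and did not pass the filter. Noradrenergic sums were 1115 and 1212 RPKM in sh003 spheres, against 888 and 721 in sh004 spheres and 705 in the control sphere. GATA3 (log2 difference, sh003 over sh004, 0.90, adjusted p = 0.037), DBH (2.13, adjusted p = 0.0089) and the RA-responsive RARB (0.68, adjusted p = 0.0496) were called higher in sh003 spheres. Mesenchymal sums were 58.2 and 85.9 in sh003, against 64.6 and 64.0 in sh004 and 47.4 in the control, and RA sums were 13.8 and 14.6, against 10.4 and 17.9 in sh004 and 7.28 in the control. The part of these markers in the sphere calls was not tested.

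**Figure D5:**
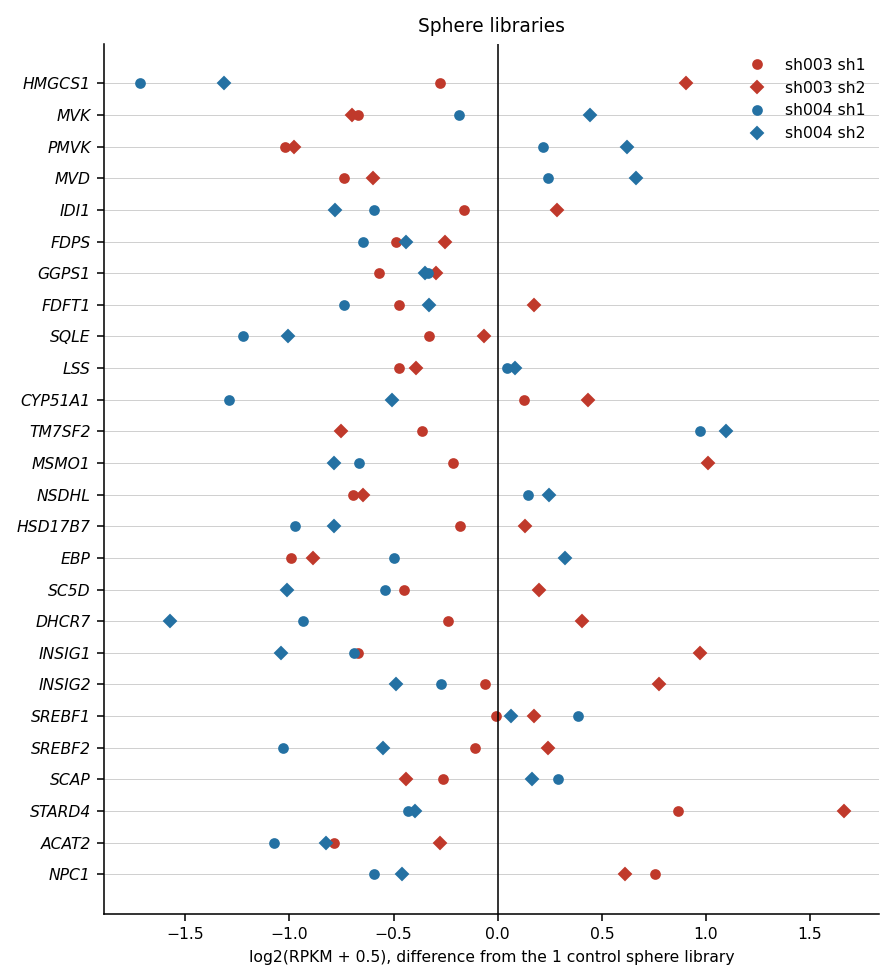
Log2 difference of each of the 4 knockdown sphere libraries from the single control sphere for the 26 members that passed the filter, sh003 libraries before sh004 libraries. STARD4 and NPC1 lie above the control in both sh003 spheres and below it in both sh004 spheres; TM7SF2 and PMVK do the reverse.

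In KELLY cells SOX9 siRNA and control siRNA gave near-equal levels of most members, with 1 library each and no test. Past a 1.5-fold difference were 0 members higher (background 4.38%) and 1 lower (3.24%), ABCG1, at 1.87 RPKM with SOX9 siRNA and 4.11 with control siRNA (275 and 641 reads, ratio 0.455, 95% interval 0.394–0.525). HMGCS1 had 50.2 RPKM with SOX9 siRNA and 39.4 with control siRNA, FDFT1 43.0 and 54.9, STARD4 33.6 and 43.0, SQLE 73.8 and 71.6, and INSIG1 39.6 and 34.6. The median log2 difference was 0.03 over members and 0.04 over all genes. ABCA1 had 2 reads with SOX9 siRNA and 10 with control siRNA.

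Genes around the pathway were read from further lists. SCD, the fatty acid desaturase that SREBP-1 and LXR induce, rose at day 7 in all 3 backgrounds without a block: 78.4–136 RPKM at day 7 in sh003, against 14.5–26.9 at day 0 (log2 change 2.51, SE 0.26, adjusted p = 0.00074), 91.2–124 in sh004, against 26.9–33.1 (1.81, SE 0.32, adjusted p = 0.045), and 113–123 in control cells, against 27.3–38.3 (1.91, SE 0.30, adjusted p = 0.014). LPCAT3, a phospholipid acyltransferase and LXR target, rose as well, with 14.6–16.0 RPKM at day 7 in sh003, against 6.97–7.45 at day 0 (1.01, adjusted p = 0.00065), 11.3–13.0 in sh004, against 5.88–7.11 (0.86, adjusted p = 0.018), and 13.4 in both control libraries, against 6.98–7.51 (0.83, adjusted p = 0.0073). Both genes were higher in every day 7 library than in any day 0 library. Of 8 fatty acid synthesis genes tested, 1 rose in sh003 and in sh004 cells (SCD) and 2 in control cells (SCD and ACSS2, which makes acetyl-CoA from acetate, 0.96, adjusted p = 0.029). With the block 3 rose in sh003 (8.65% of all genes called higher), 2 in sh004 (1.42%) and 3 in control cells (5.03%).

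Beside those same shares, and 5.63% of genes in sh003 and 2.65% in control cells called lower, stand the counts of the other lists. None of the 8 SREBP-processing genes tested was called without a block; with it MBTPS1, the site-1 protease, and ERLIN2 rose in sh003 cells. Of 12 sterol transport and storage genes tested, LIPA, the lysosomal cholesteryl ester hydrolase, rose in all 3 backgrounds with the block (0.90, 0.79 and 0.70 in log2, adjusted p 0.0041, 0.031 and 0.023), and NPC2 in sh003 cells. Of 6 LXR and oxysterol genes tested, LPCAT3 alone was called without a block, and with it NR1H3, the gene of LXR alpha, and HSD3B7, an enzyme of bile acid synthesis, also rose in sh003 cells (0.96 and 1.85, adjusted p 0.044 and 0.0075) and HSD3B7 in control cells (1.46, adjusted p = 0.037). Of 10 genes of the isoprenoid branch, which draws on farnesyl pyrophosphate for ubiquinone and dolichol, PDSS1 fell in sh003 and control cells and COQ2 in sh003 cells with the block. In sh003 over sh004 spheres, 6 of 8 fatty acid genes were called higher (ACLY, FASN, SCD, ELOVL5, ELOVL6 and LPIN1). Also higher were 5 of 8 SREBP-processing genes, 5 of 12 transport genes and 2 of 10 isoprenoid genes. Lower were 1 of 12 transport genes and 3 of 6 LXR genes. Of all genes tested there, 23.1% were called higher and 16.8% lower.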

How the data were processed

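The 28 genes and the further lists were chosen with earlier results of these data known, and every member is accounted for by name; library values are given for members called in any comparison and ranges or counts for the others. A gene of the SREBP-processing list and a noradrenergic marker are not reported here. Per the submitters' processing notes, reads were aligned to hg19 with TopHat and counted with featureCounts of Subread, with no versions given, from stranded total RNA libraries depleted of ribosomal RNA; the strand setting of the counting is not given in the sources used here. The authors deposited RPKM for 63677 genes in each of 3 tables (15 libraries of monolayers, 5 of spheres and 2 of KELLY). In 100% of values the RPKM gave back a whole read count within 0.01, and the totals were 11.9 M to 62.1 M reads. Because the deposited sphere RPKM rotate among 10 totals, 5 of which equal no sphere library's own, they were recomputed with each library's own total.

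Genes at 1 RPKM or more in at least 2 libraries were kept (19461 monolayer, 14711 sphere and 13070 KELLY genes; 28, 26 and 27 members). log2(RPKM + 0.5) of the deposited or recomputed values was fitted with limma 3.58.1 in R 4.3.3, with a mean per group, a mean-variance trend and Benjamini-Hochberg adjustment over all genes tested; the procedure was tested on simulated data. Fold changes on this scale understate those of low genes. Batch numbers in the titles pair libraries across groups, and same-batch sh003 and control libraries deviated together (r 0.80 to 0.94 in 6 pairs), so the fit with batch as a block is given beside the fit without it where it changes a call. All sh004 libraries are of batch 2, and batch 3 holds day 0 libraries alone. Alternatives were other pseudocounts (0.1 and 1), no filter, median-ratio scaling, voom on recovered reads, leaving out each library, and leaving out the 2 libraries with contradicting tags; the last with the block was added after seeing the data. KELLY and the shRNA pairs have 1 library a side and no test; their read ratios carry exact 95% Clopper-Pearson intervals, which cover counting error alone, and their 1.5-fold limit is on the log2(RPKM + 0.5) scale.

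Exons of several members overlap other genes in GENCODE 29 (GRCh38), and their counts are uncertain to that extent: ACAT2 with TCP1, MVK with MMAB, GGPS1 with ARID4B, SREBF1 with RAI1, NPC1 with RMC1 and TM7SF2 with VPS51, besides antisense transcripts at CYP51A1, FDPS, HMGCS1, IDI1, LSS, SREBF2, STARD4 and FDFT1.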

Additional observations from a re-analysis of the deposited data

Results flagged for a closer look

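For the members named here, the libraries of a knockdown all lay on the same side of the control in a monolayer comparison. They all lay on the other side of the single control sphere. The share of all genes that did so was not computed, so the number of members carries no weight. With a single control sphere, lying on the same side is a weak condition. These differences between cultures were not tested, and the monolayer and sphere values come from separate tables. With sh004, log2 differences from control were −0.54 in spheres and 0.64 in day 7 monolayers for FDPS, and −0.53 and 0.33 for FDFT1. For INSIG1 with sh004 they were −0.87 in spheres, 0.40 in day 7 and 0.38 in day 0 monolayers. At day 0 with sh004, SC5D was at 0.39 and NPC1 at 0.17, against −0.78 and −0.53 in spheres. With sh003, TM7SF2 was at −0.56 in spheres and 0.63 at day 7, NSDHL at −0.67 in spheres and 0.15 at day 0, and STARD4 at 1.26 in spheres and −1.21 at day 7. None of these single differences passed the test.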

How the results depend on the processing

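With the replicate block, 10 members were called at day 7 in sh003 cells, against 4 without it, 7 in sh004 cells, against 0, and 5 in control cells, against 1; the block changed no call between knockdown and control. voom called 0 in control cells. Without the 2 libraries with contradicting tags 1 member was called in sh003 cells and 1 in sh004 cells, and with the block as well 4 in sh004 and 5 in control cells. In spheres, sh003 over sh004, 14 members were called, 0 with no filter and 1 with RPKM as deposited. Leaving out 1 library at a time gave 1 to 4 members in sh003 cells, 0 to 1 in sh004 cells and 0 to 1 in control cells; with the block it gave 4 to 12 (8 when any single one of 7 was left out), 1 to 7 (6 when any single one of 4 was) and 0 to 14. It gave 0 to 12 members in spheres and, with the block, 0 to 2 for sh003 over control at day 7. No value changed sign while called, in the alternatives run. Groups of 2 or 3 libraries, a single control sphere and 2 residual degrees of freedom in spheres limit precision, and ABCA1 at under 1.3 RPKM is limited by depth.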

Other observations

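The levels of the members at day 0 had a narrow order across libraries. The median member lay between 10.0 and 11.9 RPKM in the 8 day 0 libraries and between 10.6 and 24.2 in the 7 day 7 libraries, with the highest median in the sh004 sh2 library of day 7. PMVK was the highest member in 6 of 8 day 0 libraries and FDFT1 in 6 of 7 day 7 libraries; SREBF1 was the highest in the control library of batch 1 at day 7.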
